A study of Mus musculus with 15 samples.

Results

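The genes described here are 42 components of the machinery that licenses replication origins, unwinds and copies DNA, supplies its deoxynucleotides and brings cells into S phase. They were chosen by symbol from a list of replication and S phase genes. All 42 were found among the 24451 genes of the count table, and all 42 passed the filter on low counts that left 14600 genes for testing. RNA of the mouse embryonic stem cell line ES-R1, given by the labels as of inner cell mass origin, was sequenced in 5 groups of 3 libraries. Every group received an siRNA and went through 4 days of differentiation, in a DMEM medium without serum that held N2 and B27. The groups were control siRNA with no addition (called untreated below), control siRNA with Activin A at 25 ng/ml, control siRNA with the inhibitor SB, Vprbp siRNA with no addition, and Vprbp siRNA with Activin A at 25 ng/ml. SB is written SB431524 in the titles and SB431542 in the series text, no dose is stated for it, and no Vprbp siRNA cells received it. ES-R1 is 1 cell line, and Vprbp siRNA is set against control siRNA with no rescue group, so loss of Vprbp and other effects of the siRNA cannot be told apart.

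Before S phase, the origin recognition complex, Cdc6 and Cdt1 load the ring-shaped MCM helicase onto origins, which is called licensing. Cyclin E and E2F activity then bring the cell into S phase, where Cdc45 and the GINS complex turn the loaded ring into an active helicase and polymerases follow it. Licensing is kept to once per cycle in part by geminin, which binds Cdt1, and by the CRL4 ubiquitin ligase, which destroys Cdt1 on chromatin-bound PCNA through its substrate receptor Dtl. Vprbp, also named Dcaf1, is another substrate receptor of CRL4. Embryonic stem cells cycle fast with a short G1 phase. Activin activates receptors of the transforming growth factor beta family, and SB431542 is known as an inhibitor of their kinase activity.

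Many genes of S phase are textbook targets of E2F factors, so the promoters were searched for E2F-like letters. Windows from 250 bases before to 50 bases after an annotated start of the gene (RefSeq, GRCm38.p6) were given for 33 of the 42 genes. TTTCCCGC, TTTCGCGC, TTTGCCGC or TTTGGCGC stood on either strand in 13 of these 33 windows (39.4%), against 2.61% of 27018 genes with such a window. The short runs below belong to genes that differed between Activin and SB. They are read 5′ to 3′ along the gene's strand, with the match in capitals and 10 bases on each side.
Dtl: gtgacgtcagTTTGGCGCggagtttggc
Mcm6: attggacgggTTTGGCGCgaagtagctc
Orc1: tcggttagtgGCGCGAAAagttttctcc
Rfc3: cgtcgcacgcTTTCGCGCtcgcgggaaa
Gins3: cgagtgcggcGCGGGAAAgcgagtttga
These runs lie at chr1:191575535-191575562 (minus strand) for Dtl, chr1:128359735-128359762 (minus) for Mcm6, chr4:108579417-108579444 (plus) for Orc1, chr5:151651201-151651228 (minus) for Rfc3 and chr8:95633508-95633535 (plus) for Gins3. Counted from the start of the window's transcript as 1, the matches begin at -8 in Dtl, -47 in Mcm6, -27 in Orc1, -10 in Rfc3 and -41 in Gins3. The start used for Orc1 lies inside the gene, whose RefSeq span begins at chr4:108575705. Mcm6 holds 2 further matches, the first at -110, and Rfc3 another at 1, seen here in lower case at the end of its run.

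Longer stretches are shown for 3 genes on which results below turn: Pola1, lower with SB, Rrm2, the gene that ran against most others, and Cdt1, the licensing factor that CRL4 destroys. E2F-like matches are in capitals.
Pola1: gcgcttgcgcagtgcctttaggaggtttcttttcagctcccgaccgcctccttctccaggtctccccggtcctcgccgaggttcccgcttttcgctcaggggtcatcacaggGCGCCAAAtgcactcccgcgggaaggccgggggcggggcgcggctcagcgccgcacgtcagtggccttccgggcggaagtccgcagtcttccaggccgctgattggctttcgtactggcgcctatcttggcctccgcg
Rrm2: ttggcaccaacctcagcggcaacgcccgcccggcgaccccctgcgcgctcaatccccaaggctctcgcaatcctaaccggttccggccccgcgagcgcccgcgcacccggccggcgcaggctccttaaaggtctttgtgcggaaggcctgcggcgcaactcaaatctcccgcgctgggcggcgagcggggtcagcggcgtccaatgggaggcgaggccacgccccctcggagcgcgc
Cdt1: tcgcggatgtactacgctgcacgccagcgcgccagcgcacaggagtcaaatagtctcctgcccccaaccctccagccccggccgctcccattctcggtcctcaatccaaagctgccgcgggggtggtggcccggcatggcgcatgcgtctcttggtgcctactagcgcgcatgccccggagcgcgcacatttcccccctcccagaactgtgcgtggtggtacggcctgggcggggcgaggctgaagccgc
The stretches are chrX:93632156-93632405 (minus strand, 250 bases) for Pola1, chr12:24708004-24708240 (plus strand, 237 bases) for Rrm2 and chr8:122567765-122568014 (plus strand, 250 bases) for Cdt1. Each begins 250 bases before the start that was used. The start used for Pola1 lies inside the gene, whose RefSeq span on the minus strand begins at chrX:93632387. Most of its stretch is therefore within the gene. Pola1 has 1 match, at -138, Rrm2 none in its window, and Cdt1 1 that begins 33 bases into the transcript and so lies outside the stretch. The CCAAT box was found in 63.6% of the 33 windows (41.1% of all genes), the GC box GGGCGG in 72.7% (38.2%), and TTTGAA or TTCGAA, letters like those of the cell cycle homology region, in 18.2% (21.7%), all searched on both strands. Among the genes with a window, the E2F-like letters stood in 6 of the 14 that were higher with Activin than with SB, in 1 of the 2 that were lower and in 6 of the 17 that did not differ past the test's threshold. Such matches describe the letters and do not show that a factor binds.

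Levels are given as CPM, the count of a gene relative to the total of its library scaled by a TMM factor, and only comparisons between genes are made per kilobase (kb) of exon. Per kb, the MCM helicase subunits stood highest as a group. The median over 15 libraries was 247 CPM per kb for Mcm3, 197 for Mcm2, 144 for Mcm5, 125 for Mcm6, 115 for Mcm7 and 105 for Mcm4. Cdt1 (163) and Rrm2 (104), a subunit of ribonucleotide reductase, were in the same range, and the ranges of Mcm4 and Rrm2 overlapped. At the other end stood Gins2 (9.7), Gins3 (7.1) and the cyclin E gene Ccne2 (1.3), far below its paralog Ccne1 (61.5). Ccne2 had only 2.70 to 5.35 CPM per library, so its changes could be measured only coarsely. For Fen1, which trims Okazaki fragments, 84.2% of exon bases overlapped exons of other genes, for Gins2 70.7% and for the chromatin assembly factor gene Chaf1a 48.6%. No source used here states the strand setting of the counting. How reads in the overlapped bases of these 3 genes and their neighbours were assigned is therefore not known. Ambiguous reads, a tally kept apart from genes, made up 0.678% to 0.722% of a library. Reads of overlapped bases may be among them, in which case the levels per kb of these 3 genes are too low. The share was 15.4% for Rfc5, 13.0% for Mcm7, 11.9% for Orc1 and 7.14% for Orc6.

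**Figure D1:**
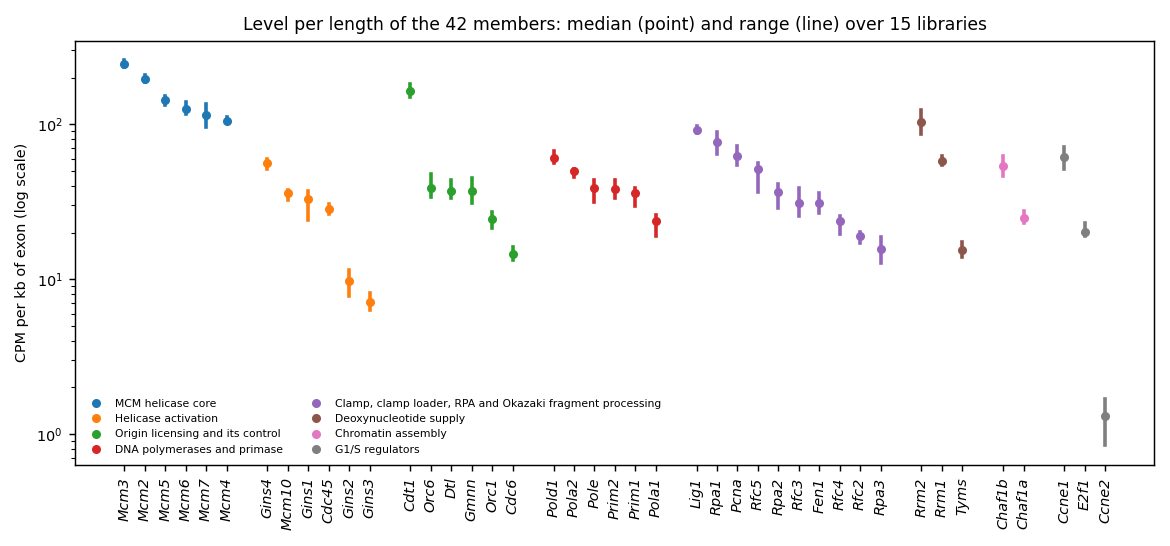
Level of each of the 42 genes as CPM per kb of exon on a log scale, grouped by role, with the median (point) and range (line) over 15 libraries. MCM subunits lie between 105 and 247 by their medians, and Ccne2 lies lowest at 1.3.

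The genes varied little. The ratio of the highest to the lowest of the 15 libraries was 1.10 for Mcm4, 1.11 for Lig1, the ligase that joins Okazaki fragments, and 1.11 for Mcm2 and Mcm3. It was highest for Ccne2 (1.98), followed by Gins1 (1.54), Rfc5 (1.53) and Rfc3 (1.52). Together the 42 genes made up 0.708% to 0.779% of the scaled counts of a library.

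Libraries held 11146183 to 15527245 counts in genes. On principal components, replicate 3 of the untreated group, replicate 3 of Vprbp siRNA and replicate 1 of Vprbp siRNA plus Activin stood away from their groups, and counts of called genes are also given without these 3. All 8 pluripotent stem cell markers were above 1 CPM by group mean in every group, with a summed level of 3930 to 4310 CPM in untreated libraries. The 6 extraembryonic endoderm markers also all passed 1 CPM in every group, at a sum of 86.8 to 92.6 CPM untreated. Passing 1 CPM therefore does not by itself identify the cell type. Whether replicates came from separate cultures is not in the labels, so p-values cover only the spread among these libraries, part of which could be technical. In bulk RNA, fewer cells in S phase and less RNA per cell cannot be told apart.

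The siRNA against Vprbp was checked first. Vprbp was at 173, 167 and 173 CPM in untreated libraries and at 121, 132 and 114 CPM with Vprbp siRNA. With Activin it was at 178, 175 and 184 CPM under control siRNA and at 149, 131 and 135 CPM under Vprbp siRNA. The groups did not overlap in either case (exact two-sided permutation p = 0.1, the smallest that 3 against 3 allows), and most of the transcript was still present. The log2 change was -0.49 ± 0.06 (standard error; edgeR quasi-likelihood, Benjamini-Hochberg adjusted p = 0.00205) without and -0.37 ± 0.06 (edgeR adjusted p = 0.0374) with Activin. The second call was lost without any 1 of the control siRNA with Activin libraries or Vprbp siRNA with Activin replicate 2 or 3, at log2 changes of -0.38 to -0.33 and adjusted p of 0.0573 to 0.296 (0.000274 to 0.296 over all alternatives). In a fit of only the 2 groups compared, the first was not called at an unmoved log2 change of -0.49 (adjusted p = 0.151, 1.72e-08 to 0.151 over all alternatives).

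Of the replication genes that differed between Activin and SB in control siRNA cells, most were higher with Activin, among them Rfc5, Orc6, Pcna and Gins1, while Rrm2 was lower. A gene is said to be called, or to have risen or fallen, only where edgeR's quasi-likelihood test gave a Benjamini-Hochberg adjusted p under 0.05 over all 14600 genes. By this test 16 of the 42 were called higher with Activin than with SB and 2 lower. Over all genes 38.0% were called, 19.0% higher and 19.0% lower. Without adjustment (p under 0.05), 20 were higher and 2 lower (23.3% and 23.4% of all genes), and DESeq2 called 18 (37.4% of all genes). The median log2 difference was 0.13 over the 42 genes and -0.0020 over all genes tested, and 36 of the 42 values were above 0. The groups did not overlap for 21 genes that were higher and 2 that were lower, against 27.2% and 27.6% of all genes. The differences were small, the largest being 1.43-fold (95% interval 1.29 to 1.58) for Rfc5. The count of higher genes was 9, 9 and 10 without control siRNA with Activin replicate 1, 2 and 3 in turn, 8 without SB replicate 1, and 10 with library totals in place of TMM factors, where Chaf1b, Mcm7, Orc1, Pola1, Rpa2 and Rrm1 were no longer called. Orc1, Rrm1 and Gins3 were not called when no filter on low counts was used. Without the 3 libraries that stood away, none of which is in these 2 groups, 18 were higher and 2 lower, with Gmnn and Tyms added. Of the 18 calls, 7 were kept whichever of the 6 libraries was left out: Rfc5, Orc6, Rrm2, Pcna, Gins1, Rfc3 and Mcm6. The other 11 were lost without at least 1 of them. Rpa2 and Rrm1 were lost without any 1, Chaf1b without each but SB replicate 2, and Orc1 without each but SB replicate 3. Mcm7 was lost without Activin replicate 1 or 3 or SB replicate 1 or 3, Pola1 without Activin replicate 1 or 2 or SB replicate 1 or 2, and Gins3 without Activin replicate 2 or 3 or SB replicate 1 or 3. Ccne1 was lost without Activin replicate 1 or 3 or SB replicate 3, Dtl without Activin replicate 2 or SB replicate 1 or 2, Prim1 without Activin replicate 2 or SB replicate 1, and Gins2 without Activin replicate 2.

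Against untreated cells fewer genes were called. With SB, Rfc5, Orc1, Pola1 and Prim1 fell, 4 of the 42, and 0 rose, where 22.6% of all genes were called (11.3% lower, 11.2% higher). At an unadjusted p under 0.05, 9 were lower and 1 higher (16.7% and 17.0% of all genes), and DESeq2 called 4 lower and 1, Rrm2, higher (22.9% of all genes called). The groups did not overlap for 12 that were lower and 3 that were higher, against 18.4% and 18.8% of all genes. The count of genes that fell was 2 without untreated replicate 1, SB replicate 1 or SB replicate 2, and 7 without the 3 libraries that stood away. The median over the 42 was -0.06, against -0.0048 over all genes. With Activin, Orc6 rose, 1 of the 42, and 0 fell, where 4.83% of all genes were called (2.95% higher, 1.88% lower). At an unadjusted p under 0.05, 7 were higher and 2 lower (10.5% and 10.1% of all genes), and DESeq2 called 2 higher, Orc6 and Mcm6, and 0 lower (6.34% of all genes called). The groups did not overlap for 8 that were higher and 2 that were lower, against 14.0% and 13.6% of all genes. The median was 0.04 against -0.0054, and without the 3 libraries that stood away Orc6 and Gins2 rose. These 2 comparisons and the direct one share libraries, so they are not independent of each other. The 42 genes summed to 7078, 7242 and 7476 CPM with SB, to 7574, 7582 and 7592 CPM in untreated libraries and to 7792, 7699 and 7752 CPM with Activin. By this sum the 3 groups did not overlap. With library totals in place of TMM factors, the SB and untreated groups overlapped.

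**Figure D2:**
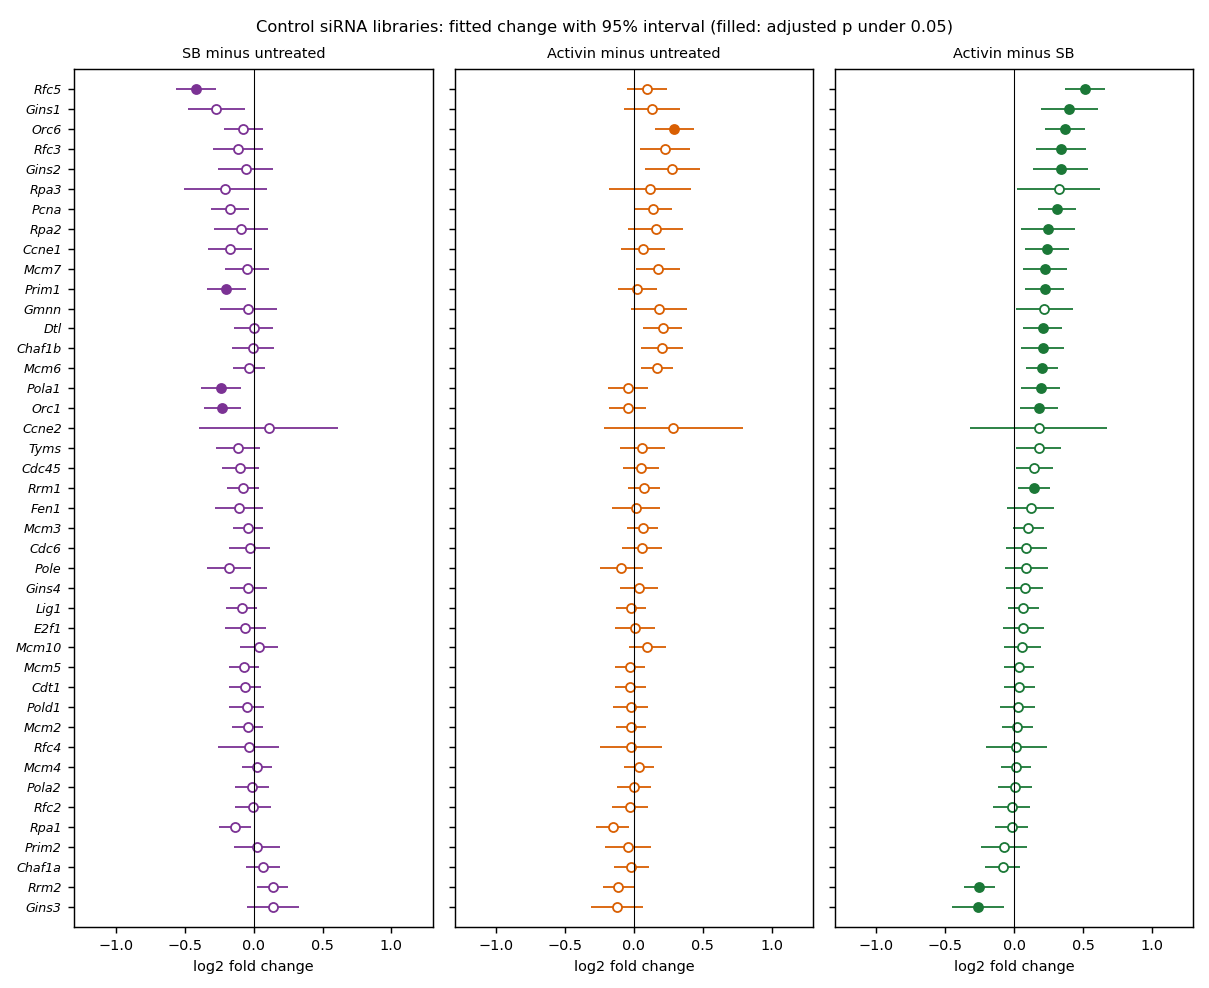
Fitted log2 changes with 95% intervals of the 42 genes in control siRNA cells: SB minus untreated, Activin minus untreated and Activin minus SB, ordered by the last. Filled points passed an adjusted p of 0.05. In the right panel 16 points are filled above 0 and 2, Rrm2 and Gins3, below it.

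Markers moved in the same libraries. The 8 pluripotent stem cell markers summed to 4210 to 4650 CPM with Activin and to 2340 to 2670 CPM with SB, and 6 of them fell with SB while 0 rose. The 6 trophoblast markers summed to 106 to 118 CPM with Activin, 116 to 145 CPM untreated and 138 to 167 CPM with SB, and 3 rose with SB, with 2 under 1 CPM there. The 6 neuron markers summed to 136 to 149 CPM with SB and 207 to 227 CPM untreated, with 1 under 1 CPM, and 2 fell. The 6 fibroblast markers summed to 41.2 to 46.6 CPM with SB and 56.7 to 76.2 CPM untreated, with 1 under 1 CPM, and 2 fell. The 6 extraembryonic endoderm markers, none under 1 CPM, summed to 97.9 to 113 CPM with SB, 86.8 to 92.6 CPM untreated and 113 to 133 CPM with Activin, and 1 rose with each addition. No marker was at 0 in all 3 SB libraries or in all 3 control siRNA libraries with Activin. The part of these markers in the replication gene results was not tested.

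Among the subunits of the MCM ring, which opens the double helix at the fork, Mcm6 and Mcm7 were higher with Activin than with SB, by log2 0.20 ± 0.06 and 0.22 ± 0.08 (edgeR adjusted p = 0.00696 and 0.029). The other 4 differed by 0.02 to 0.10 and were not called. Mcm7 was at 338, 339 and 285 CPM untreated, 374, 349 and 363 CPM with Activin and 297, 322 and 311 CPM with SB. All Activin libraries were above all SB libraries, and the untreated group spanned both sides of the SB group. Against the untreated group none of the 6 passed with Activin or with SB, with changes between -0.07 and 0.17.

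The GINS complex, which with Cdc45 activates the helicase, was split. Gins1 was at 36.0, 37.4 and 28.8 CPM untreated, 35.7, 37.4 and 38.7 CPM with Activin and 26.1, 29.4 and 29.3 CPM with SB. The Activin and SB libraries did not overlap, and untreated replicate 3, one of the libraries that stood away, sat among the SB values. Gins1 was 1.32-fold higher with Activin than with SB (95% interval 1.14 to 1.52, edgeR adjusted p = 0.00338), and Gins2 was higher by log2 0.34 ± 0.10 (edgeR adjusted p = 0.00841). Gins3 was lower, by -0.26 ± 0.09 (edgeR adjusted p = 0.0278), with all 3 Activin libraries below all SB libraries. These 3 calls also held with RLE size factors and with library totals, but Gins3 was not called when no filter on low counts was used. Gins4, Cdc45 (0.15 ± 0.06, edgeR adjusted p = 0.0744) and Mcm10, which helps to activate the helicase, were not called.

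Of the licensing genes, Orc6 stood out. Orc6, the smallest subunit of the origin recognition complex, was at 57.3, 58.1 and 60.6 CPM untreated, 76.0, 72.3 and 67.4 CPM with Activin and 57.1, 54.4 and 55.6 CPM with SB. Every Activin library was above every other control siRNA library. It rose 1.22-fold with Activin (95% interval 1.11 to 1.35, edgeR adjusted p = 0.017) and was 1.29-fold higher with Activin than with SB (1.17 to 1.42, edgeR adjusted p = 0.000253). The rise over untreated cells lost its call without untreated replicate 1 or 2 or Activin replicate 1 or 2, at log2 0.25 to 0.28 (adjusted p = 0.0504 to 0.0946, 0.00391 to 0.0946 over all alternatives).

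Orc1, the largest subunit, whose level follows the cell cycle, was at 79.6, 73.9 and 81.1 CPM untreated, 74.1, 74.2 and 79.1 CPM with Activin and 66.9, 64.3 and 69.3 CPM with SB. The SB group lay below both others, which overlapped. Orc1 fell with SB by -0.23 ± 0.07 (edgeR adjusted p = 0.0152), a call lost without untreated replicate 1 or SB replicate 2 (-0.21 and -0.19, adjusted p = 0.0532 and 0.0785, 0.00888 to 0.0785 over all alternatives). It was higher with Activin than with SB by 0.18 ± 0.07 (edgeR adjusted p = 0.0333).

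Dtl, the CRL4 receptor for Cdt1, was at 160.1, 146 and 141 CPM untreated, 163, 183 and 170.1 CPM with Activin and 148, 142 and 157 CPM with SB. The Activin libraries were above all 6 others. Dtl was higher with Activin than with SB by 0.21 ± 0.07 (edgeR adjusted p = 0.0202) and did not pass against untreated cells (0.21 ± 0.07, edgeR adjusted p = 0.0825).

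Cdt1 itself was at 359.8, 368 and 397 CPM untreated, 373, 369 and 364 CPM with Activin and 355, 366 and 356 CPM with SB, and the groups overlapped. Cdc6, which helps to load the helicase, was at 72.3, 72.6 and 67.0, then 77.2, 74.3 and 69.3, then 66.9, 66.4 and 74.4 CPM in the same order. Geminin (Gmnn) was at 46.0, 43.6 and 37.2, then 53.6, 46.3 and 43.9, then 36.7, 40.4 and 46.4 CPM. For both genes the groups overlapped, and none of the 3 was called in any comparison of Activin, SB and untreated cells. Gmnn (0.22 ± 0.10, edgeR adjusted p = 0.0874) was called higher with Activin than with SB in a fit of these 2 groups alone, without the 3 libraries that stood away, and without SB replicate 3.

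Polymerase alpha and primase, which lay down the RNA-DNA primers, held 2 of the 4 genes that fell with SB. Pola1, the catalytic subunit of polymerase alpha, was at 127, 128 and 139 CPM untreated, 132, 131 and 119.7 CPM with Activin and 101, 114 and 119.8 CPM with SB. The SB group lay below the untreated group but just reached the Activin group. Prim1, the catalytic subunit of primase, was at 60.5, 56.7 and 59.4 CPM untreated, 60.1, 61.4 and 58.2 CPM with Activin and 47.1, 52.7 and 54.2 CPM with SB. All SB libraries were below all others for Prim1. With SB, Pola1 fell by -0.23 ± 0.07 (edgeR adjusted p = 0.0171) and Prim1 by -0.20 ± 0.07 (edgeR adjusted p = 0.0409). Pola1 lost its call without untreated replicate 3 (-0.19, adjusted p = 0.063) or SB replicate 1 (-0.17, adjusted p = 0.12; 0.0109 to 0.12 over all alternatives), and Prim1 without untreated replicate 1, 2 or 3 or SB replicate 1 or 2 (-0.22 to -0.14, adjusted p = 0.0524 to 0.22; 0.038 to 0.22 over all alternatives). Prim1 was also not called with library totals, with no filter, in a fit of the 2 groups alone and without the 3 libraries that stood away. Both were higher with Activin than with SB (0.19 ± 0.07 and 0.22 ± 0.07, edgeR adjusted p = 0.0335 and 0.0135). Their partners Pola2 and Prim2 and the catalytic subunits of the replicative polymerases, Pold1 and Pole, were not called in these comparisons.

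The clamp loader held the largest change with SB. Rfc5, a small subunit of the loader that places the PCNA ring on DNA, was at 177, 167 and 144 CPM untreated, 172, 167 and 181 CPM with Activin and 122, 124 and 119 CPM with SB. The SB libraries were far below all others and close to each other, while the untreated and Activin groups overlapped. With SB it fell to 0.75 of the untreated level (95% interval 0.68 to 0.83, edgeR adjusted p = 0.000154). The difference of Activin and SB was log2 0.51 ± 0.07 (edgeR adjusted p = 7.45e-06). Of the other loader subunits, Rfc3 was higher with Activin than with SB (0.34 ± 0.09, edgeR adjusted p = 0.00388), and Rfc2 and Rfc4 were at -0.02 and 0.02.

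PCNA, the ring that holds polymerases on DNA, was at 101, 90.2 and 94.8 CPM untreated, 111, 102 and 102 CPM with Activin and 86.0, 83.1 and 85.0 CPM with SB for its gene Pcna. The 3 groups did not overlap. Pcna was 1.24-fold higher with Activin than with SB (95% interval 1.13 to 1.36, edgeR adjusted p = 0.000952), and did not pass against untreated cells with SB (-0.17 ± 0.07, edgeR adjusted p = 0.0669) or with Activin (0.14 ± 0.07, edgeR adjusted p = 0.245). Of the single-strand binding protein RPA, Rpa2 was higher with Activin than with SB (0.25 ± 0.09, edgeR adjusted p = 0.0458), while Rpa1 (-0.02) and Rpa3 (0.32 ± 0.14, at 8.58 to 12.6 CPM) were not called. Lig1 (0.07) and Fen1 (0.12) were not called.

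Rrm2 ran against most of the group. It encodes the small subunit of ribonucleotide reductase, which makes deoxynucleotides and whose level limits the enzyme in S phase. Rrm2 was at 232, 237 and 237 CPM untreated, 219.5, 211 and 222 CPM with Activin and 246, 261 and 270.2 CPM with SB. The 3 groups did not overlap, with SB highest and Activin lowest. The difference of Activin and SB was -0.25 ± 0.05 (edgeR adjusted p = 0.000875). Against untreated cells neither SB (0.14 ± 0.05, edgeR adjusted p = 0.0686) nor Activin (-0.11 ± 0.05, edgeR adjusted p = 0.231) passed. Rrm1, the large subunit of the same enzyme, was higher with Activin than with SB (0.15 ± 0.06, edgeR adjusted p = 0.0448), a call that ended with library totals and without any 1 library. Tyms, which makes thymidylate, was at 0.18 ± 0.08 (edgeR adjusted p = 0.0785).

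Of the last 5 genes, Chaf1b, a histone chaperone subunit that assembles nucleosomes behind the fork, and the cyclin gene Ccne1 were higher with Activin than with SB, by 0.21 ± 0.07 and 0.24 ± 0.08 (edgeR adjusted p = 0.0333 and 0.0193). Chaf1a (-0.08), Ccne2 (0.18 ± 0.24) and the transcription factor gene E2f1 (0.07) were not called. Rfc5, Orc6, Rrm2, Pcna and Gins1, the 5 genes with the smallest p in this comparison, kept their calls in all 14 alternative fits.

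**Figure D3:**
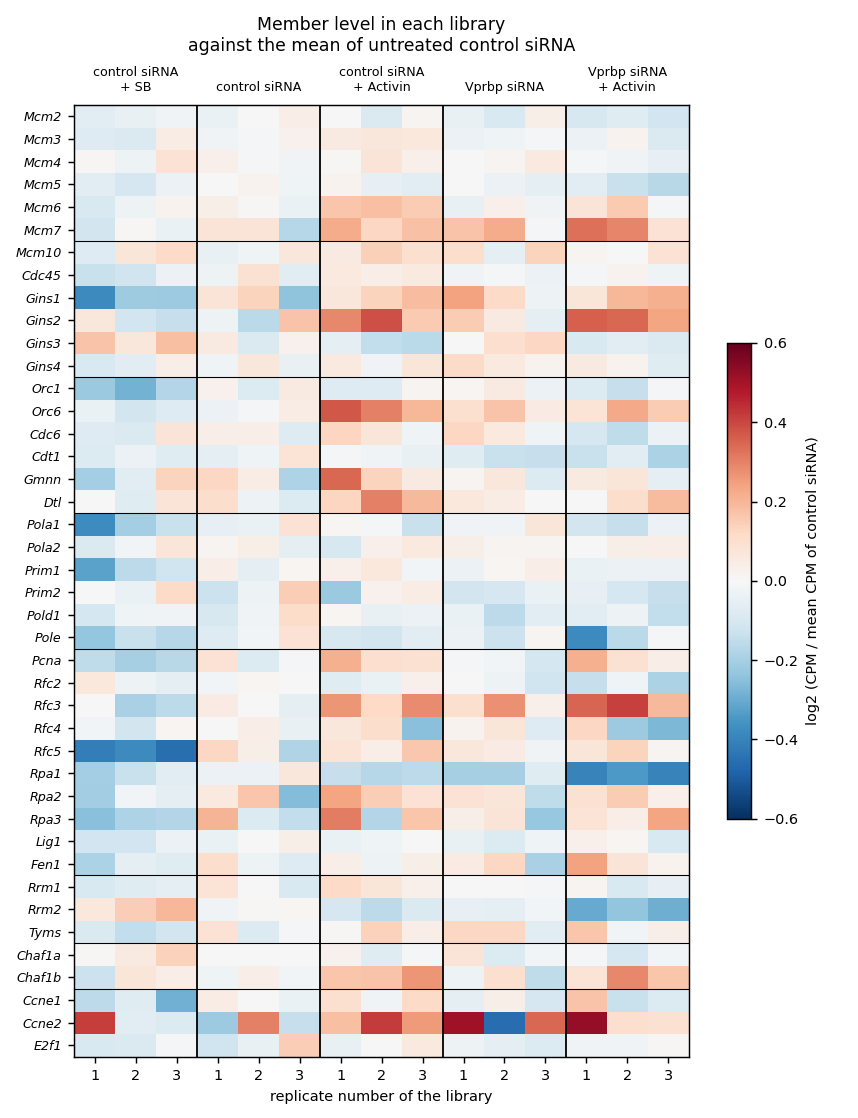
Each of the 42 genes in each of the 15 libraries, as log2 of its CPM over the mean CPM of untreated control siRNA libraries, with red higher and blue lower and rows ordered by role. Rfc5 is blue in all 3 SB libraries, Orc6 red in all 3 control siRNA libraries with Activin, and Rpa1 blue in all 3 Vprbp siRNA libraries with Activin.

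Between Vprbp siRNA and control siRNA few genes of any kind were called, and of the replication genes Rpa1 alone, in the average of both backgrounds. Without Activin edgeR called 0 of the 42, where 0.0411% of all genes were called (0.0342% higher, 0.00685% lower), so a count of 0 tells nothing particular to these genes. At an unadjusted p under 0.05, edgeR had 0 higher and 1 lower (4.6% and 3.56% of all genes), and DESeq2 called 0 (0.214% of all genes). With Activin edgeR also called 0, again with 0.0411% of all genes called (0.0342% higher, 0.00685% lower). Unadjusted p was under 0.05 for 0 higher and 3 lower (5.88% and 4.62% of all genes), and DESeq2 called 1, Rpa1, lower (0.696% of all genes). The fitted changes lay between -0.16 and 0.19 without and between -0.23 and 0.10 with Activin, and the medians were -0.0010 and -0.06, against 0.0009 and 0.0017 over all genes. With same-numbered libraries treated as pairs, 18 genes in all were called without Activin in place of 6, of which 0 were among the 42. A change that misses the threshold does not show that levels were equal: the 95% intervals reached from -0.34 to 0.69 without Activin and from -0.53 to 0.46 with it, the widest being those of Ccne2, Rpa3 and Rfc4 on both backgrounds.

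The groups were also compared library by library. Without Activin, 1 gene (Orc6, by a margin of under 0.1 CPM) had all Vprbp siRNA libraries above control siRNA and 2 (Rpa1, Cdt1) below, against 6.64% and 5.65% of all genes. With Activin, 0 were above and 10 below, against 8.38% and 9.03% of all genes. These counts were not tested against each other, and the test of the difference of the Activin responses, given below, called 0 of the 42. The 10 were Mcm3, Mcm4, Mcm5, Cdc45, Cdc6, Cdt1, Prim1, Rpa1, Rrm1 and Rrm2. Some margins were narrow. The highest Vprbp siRNA library against the lowest control siRNA library was 491.7 against 492.8 CPM for Mcm5, 68.8 against 69.3 CPM for Cdc6 and 57.4 against 58.2 CPM for Prim1. For Rpa1 it was 346 against 391 CPM. The summed level was 7522, 7459 and 7469 CPM with Vprbp siRNA, and 7422, 7498 and 7223 CPM with Vprbp siRNA and Activin. Each was below its control siRNA group, though without Activin the groups overlapped when library totals were used. Without Vprbp siRNA with Activin replicate 3, the difference of the means with Activin was -244 CPM in place of -366 CPM.

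Rpa1, the large subunit of RPA, was the lowest of the 42 against control siRNA on both backgrounds. It was at 430.3, 429 and 461 CPM untreated, 384, 383 and 418 CPM with Vprbp siRNA, 400.4, 391 and 395 CPM with control siRNA and Activin, and 333, 346 and 334 CPM with Vprbp siRNA and Activin. With control siRNA and SB it was at 382, 401 and 420 CPM. Every library outside the untreated group was thus below every untreated one, also without Vprbp siRNA. Under control siRNA, Rpa1 was not called with SB or with Activin. Vprbp siRNA libraries lay below their controls each time, and the group with both additions was lowest of all. The change was -0.16 ± 0.06 without Activin (edgeR adjusted p = 0.505) and -0.23 ± 0.06 with it (edgeR adjusted p = 0.152). Averaged over both backgrounds Rpa1 fell to 0.88 of control (95% interval 0.83 to 0.93, edgeR adjusted p = 0.0299), the 1 gene of 42 called where 0.938% of all genes were, 0.664% higher and 0.274% lower. Before adjustment (p under 0.05), 0 were higher and 3 lower (8.22% and 6.42% of all genes), and DESeq2 called 1 (2.55% of all genes). The edgeR call of Rpa1 was lost without untreated replicate 3, any 1 of the control siRNA with Activin libraries, Vprbp siRNA replicate 1 or 2, or Vprbp siRNA with Activin replicate 1, at log2 changes of -0.19 to -0.17 (adjusted p = 0.0542 to 0.101, 0.000819 to 0.101 over all alternatives).

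Among the genes that control licensing, Cdt1 was at 356, 342 and 341 CPM with Vprbp siRNA and at 342, 358 and 328 CPM with Vprbp siRNA and Activin. Both groups lay below their control siRNA groups, the highest Vprbp siRNA library being 356 CPM against a lowest untreated one of 359.8 CPM. The averaged change was -0.11 ± 0.04 (95% interval -0.19 to -0.03, edgeR adjusted p = 0.19) and was not called. Cdt1 protein, which CRL4 acts on, was not measured.

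Cdc6 was at 76.9, 73.6 and 69.3 CPM with Vprbp siRNA and at 65.9, 63.5 and 68.8 CPM with Vprbp siRNA and Activin. With Activin all Vprbp siRNA libraries were below control siRNA, the fitted change being -0.16 ± 0.07 (edgeR adjusted p = 0.453). Gmnn was at 42.8, 44.3 and 39.9 and then 43.9, 44.5 and 40.7 CPM, and Dtl at 156, 154 and 149 and then 149, 159.9 and 169.7 CPM. Both overlapped with their control siRNA groups on both backgrounds. The averaged changes were -0.05 for Cdc6, -0.08 for Gmnn and -0.04 for Dtl. Mcm7, next by p after Rpa1 and Cdt1 without Activin, was at 361, 374 and 319 CPM with Vprbp siRNA, overlapping with untreated libraries (0.13 ± 0.08, edgeR adjusted p = 0.688).

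**Figure D4:**
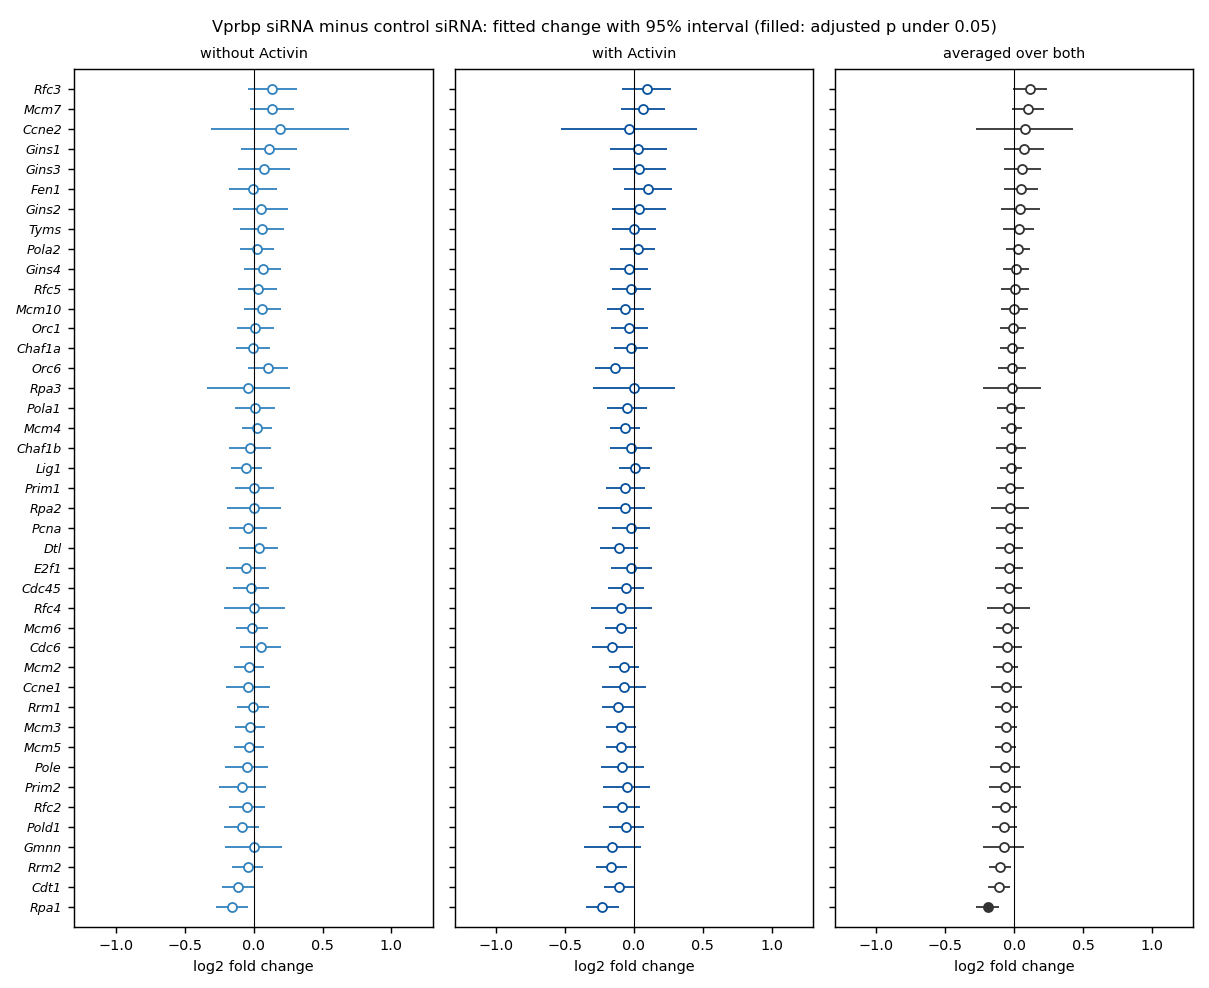
Fitted log2 changes with 95% intervals of the 42 genes for Vprbp siRNA minus control siRNA, without Activin, with Activin and averaged over both, ordered by the average. Rpa1 in the right panel, at -0.19, is the 1 filled point.

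In Vprbp siRNA cells, Activin lowered Rrm2 and Rpa1. These 2 of the 42 fell and 0 rose, where 6.12% of all genes were called (2.47% lower, 3.65% higher). At an unadjusted p under 0.05, 4 were higher and 3 lower (10.3% and 9.32% of all genes), and DESeq2 also called 2 (7.37% of all genes). The groups did not overlap for 3 that were higher and 7 that were lower, against 11.2% and 10.2% of all genes. Rrm2 was at 227, 226 and 232 CPM with Vprbp siRNA and 191, 199.5 and 192 CPM with Vprbp siRNA and Activin. For both genes the Activin libraries lay below all Vprbp siRNA libraries without it. The changes were -0.23 ± 0.05 for Rrm2 (edgeR adjusted p = 0.0111) and -0.23 ± 0.06 for Rpa1 (edgeR adjusted p = 0.0195). Both lost their calls without Vprbp siRNA replicate 3 (-0.22 and -0.18, adjusted p = 0.0654 and 0.144), and Rpa1 also without Vprbp siRNA with Activin replicate 1 or 2 (-0.21 and -0.24, adjusted p = 0.068 and 0.0512). Both were also lost in a fit of these 2 groups alone and when the 3 libraries that stood away were left out, the adjusted p over all alternatives being 0.00085 to 0.0709 for Rrm2 and 0.00354 to 0.144 for Rpa1. The median change was 0.0007 over the 42 genes and -0.0052 over all genes. Under control siRNA, Rrm2 and Rpa1 were also lower in every Activin library than in every untreated one, though neither was called. Rpa1 was there at 400.4, 391 and 395 CPM with Activin and at 430.3, 429 and 461 CPM untreated.

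The Activin responses under the 2 siRNAs were compared directly. No gene of the 42 was called, with 0.0% of all genes called by edgeR. At an unadjusted p under 0.05, edgeR had 0 higher and 1 lower (1.77% and 1.77% of all genes), and DESeq2 called 0 (0.0% of all genes). The lower one was Orc6, at 62.6, 66.0 and 60.6 CPM with Vprbp siRNA and 62.1, 68.6 and 65.3 CPM with Vprbp siRNA and Activin. These 2 groups overlapped, unlike those under control siRNA. The difference of the responses was -0.24 ± 0.10 for Orc6, -0.21 ± 0.10 for Cdc6 and -0.12 ± 0.08 for Rrm2 (edgeR adjusted p = 0.999 for each). A difference between the siRNAs in the Activin response of Orc6 is therefore not shown.

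**Figure D5:**
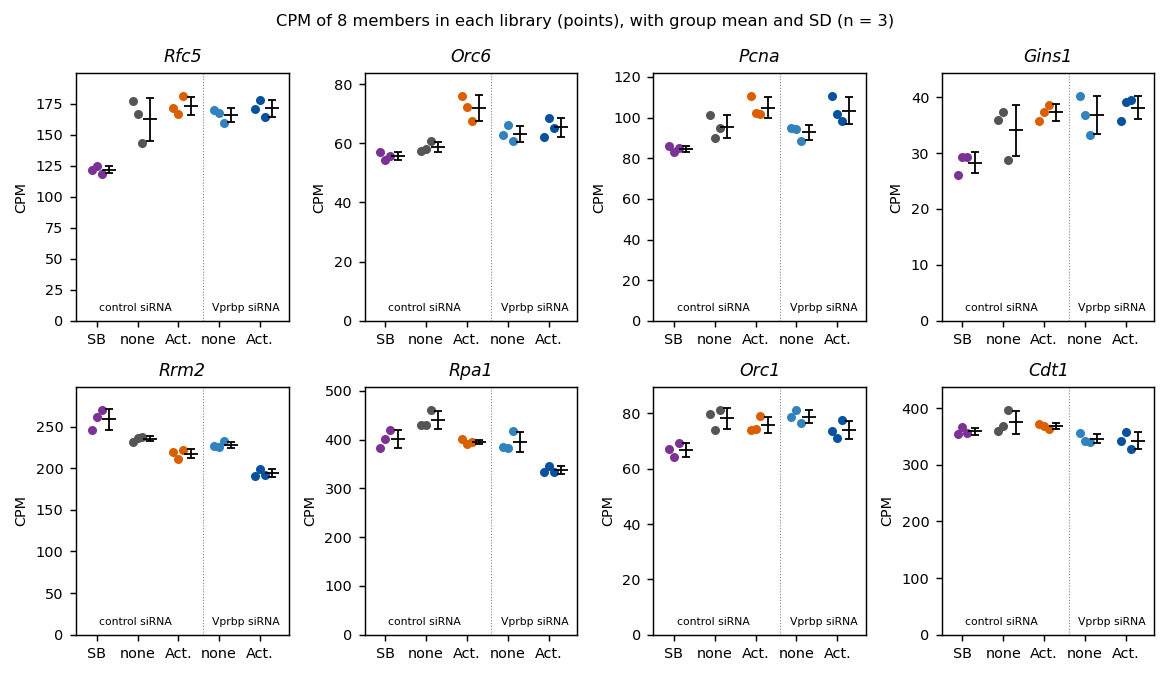
CPM of 8 genes in each library (points), with the group mean and SD (n = 3), for control siRNA with SB, no addition or Activin and for Vprbp siRNA with no addition or Activin. Rfc5 is low with SB, Orc6 high with Activin under control siRNA, and Rrm2 and Rpa1 lowest with Vprbp siRNA and Activin.

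Other genes around replication were taken from 5 further lists, from each of which up to 3 genes are named by their p. Their counts stand against 38.0% of all genes called between Activin and SB (19.0% higher, 19.0% lower), 22.6% with SB, 4.83% with Activin and 6.12% with Activin in Vprbp siRNA cells. Of 28 other replisome and origin firing genes, 9 were higher with Activin than with SB and 1 lower, with a median of 0.11. The 35.7% called in either direction was near the share of all genes, but the calls of all genes were split evenly between higher and lower. Pold3 and Pold2, subunits of polymerase delta, were at 0.53 ± 0.06 and 0.34 ± 0.06, and the fork protection gene Tipin at 0.36 ± 0.07. Tipin's partner Timeless was the one that was lower (-0.22). With SB 4 of the 28 fell, among them Pold3 (-0.29 ± 0.06), Pold2 (-0.26 ± 0.06) and Tipin (-0.26 ± 0.07), and 1 rose. With Activin 2 rose, Pold3 (0.24 ± 0.06) and the origin recognition gene Orc5 (0.25 ± 0.07), and 0 fell. In Vprbp siRNA cells with Activin 2 fell, Timeless (-0.24 ± 0.06) and the origin firing gene Ticrr (-0.27 ± 0.08, with overlapping groups), and 0 rose.

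Of 15 genes for nucleotide synthesis, histone chaperones and maintenance methylation, 7 were higher with Activin than with SB and 1 lower (53.3% called). The dCTP pyrophosphatase gene Dctpp1 (0.51 ± 0.09) was among those higher, and Uhrf1, which guides maintenance methylation behind the fork, was lower (-0.37 ± 0.06). Uhrf1 rose with SB (0.28 ± 0.06), the 1 called there.

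Regulators of entry into S phase moved in both directions. Of 29 such genes, 12 were higher with Activin than with SB and 6 lower (62.1% called). Myc, a growth and cell cycle factor, was at 46.2, 39.1 and 31.2 CPM untreated, 64.3, 64.1 and 70.0 CPM with Activin and 12.6, 14.8 and 13.2 CPM with SB, with no overlap between these groups. Its difference was 2.29 ± 0.15, that of the S phase kinase gene Cdk2 0.47 ± 0.06 and that of Tfdp2, an E2F partner, 0.76 ± 0.11. The kinase inhibitor genes Cdkn1c (-1.55 ± 0.24) and Cdkn2c (-1.17 ± 0.26), chosen after their values were seen, differed most in the other direction. The kinase inhibitor gene Cdkn1a, also chosen after its values were seen, was instead higher with Activin than with SB (0.41 ± 0.09). With SB, Myc (-1.52 ± 0.15), Cdk2 (-0.29 ± 0.06) and Cdkn1a (-0.34 ± 0.09) were among 7 that fell. The kinase inhibitor genes Cdkn1b (0.39 ± 0.08) and Cdkn1c (1.18 ± 0.23) were among 4 that rose. With Activin, Myc (0.77 ± 0.13), Mycn (0.47 ± 0.10) and Skp2 (0.33 ± 0.09), a ubiquitin ligase receptor for cell cycle inhibitors, were among 4 that rose, and 1 fell. In Vprbp siRNA cells Activin gave 1 rise, Myc (0.61 ± 0.13), and 2 falls, Cdkn2c (-1.16 ± 0.27) and Ccnd3 (-0.36 ± 0.09).

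Genes of G2 and mitosis were examined as a comparison with a later phase. Of 20, 7 were higher with Activin than with SB and 0 lower. The 35% called in either direction was near the share of all genes, but the calls of all genes were split evenly between higher and lower. Of the 20, the genes with the smallest p were the checkpoint kinase genes Ttk (0.52 ± 0.08) and Bub1 (0.60 ± 0.09) and Top2a (0.33 ± 0.06), which untangles chromosomes. Of 9 CRL4 ligase genes, 1 was higher, Vprbp (0.25 ± 0.06), and 1 lower, the scaffold gene Cul4b (-0.22 ± 0.07), 22.2% in all. Vprbp also fell with SB (-0.18 ± 0.06, edgeR adjusted p = 0.0485). Vprbp knockdown called 0 of the 28, 15, 29 and 20 genes of the other lists, with or without Activin by edgeR, and of the 9 CRL4 genes Vprbp alone.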

How the data were processed

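The authors deposited raw fragment counts per gene of 15 libraries (11146183 to 15527245 in genes). The submitters' processing notes name HTSeq 0.6.1p1 and mm10. For the aligner, annotation and strand setting: not given in the sources used here. The 5 tally rows of the table were kept out, of which reads outside genes made up 10.3% to 16.0% of a library. The 42 genes, the further lists and the markers were chosen with earlier results of these data known.

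All genes were fitted together with edgeR 4.0.16 in R 4.3.3 (filterByExpr with a minimum count of 10, TMM, robust glmQLFit and glmQLFTest, 1 mean per group over 15 libraries), with Benjamini-Hochberg adjustment over 14600 genes of each comparison. The procedure was also run on simulated counts, for Activin against SB only and with the same spread for every gene. No library that stood away was simulated, so the run does not cover that feature of the data. Values are CPM per library and log2 changes ± standard error. Named with every library's value were up to 5 called genes of smallest p per comparison (3 where none was called), Cdt1, Gmnn, Cdc6, Dtl and Vprbp, and up to 3 genes of each further list, of which 1 is not reported here. Those without a full set of values are given by their changes. Alternatives were RLE factors, library totals, no filter, DESeq2 1.42.0, a filter of 1 CPM in 3 libraries, fitting the compared groups alone, a replicate block and leaving out libraries. Leaving out the 3 libraries that stood away from their groups, and the alternatives for the summed level, were added after seeing the data. Deviations of same-numbered untreated and Vprbp siRNA libraries correlated at 0.12, 0.20 and 0.37. In the other 9 pairs of groups at least 1 number stayed under 0.1. The highest value, 0.37, came from replicate 3, and both of those libraries stood away from their groups. Whether same-numbered libraries were paired is therefore not settled, and the main fit does not pair them. Exon lengths are from GENCODE M21 protein-coding transcripts, and promoters from RefSeq (GRCm38.p6). Counts of replicates differed beyond sampling noise in each pair.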

Additional observations from a re-analysis of the deposited data

How the results depend on the processing

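Counts of the 42 genes called stayed within 1.5 times in 212 values from alternative fits and moved further in 36. Most of the 212 were counts of 0 in the main fit that stayed at 0, so the 212 say little about the other counts. Activin against SB gave 10 higher with library totals and 8 to 12 without 1 library, and 1 lower without a filter and 1 to 2 without 1 library. SB gave 1 higher by DESeq2 and with library totals, 0 to 1 higher and 2 to 4 lower without 1 library, and 7 lower without the 3 libraries that stood away from their groups. Activin with control siRNA gave 2 higher by DESeq2 and without those 3, and 0 to 1 without 1 library. Activin with Vprbp siRNA gave 0 lower in a fit of the compared groups and without those 3, and 0 to 2 lower and 0 to 1 higher without 1 library. Averaged knockdown gave 0 to 1 lower without 1 library, and knockdown with Activin 1 lower by DESeq2. The cause of these shifts was not tested.

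With the replicate block, knockdown without Activin called 0 of the 42, SB called 5 lower (Pcna added), and the block changed no other call among the 42. Over all genes, knockdown called 18, 51 and 273 genes with the block (without Activin, with Activin and averaged), 30, 78 and 343 by DESeq2, 1, 68 and 76 in fits of the compared groups, and 76, 205 and 475 without the 3 libraries, in place of 6, 6 and 137. Without a filter knockdown called 10 genes without and 15 with Activin. Activin called 1058 in place of 705 genes with the block and control siRNA, and 373 in place of 894 in a fit of the compared groups with Vprbp siRNA. Leaving out 1 library moved the all-gene counts behind the printed shares as well. With control siRNA, Activin called 448 without untreated replicate 2, 306 without untreated replicate 3, and 352, 274 and 265 without Activin replicate 1, 2 and 3. With Vprbp siRNA it called 485 and 351 without Vprbp siRNA replicate 1 and 3, and 464 without Vprbp siRNA with Activin replicate 2. Averaged knockdown ran from 24 (without control siRNA with Activin replicate 1) to 395 (without Vprbp siRNA replicate 3), knockdown without Activin from 2 to 37 and with Activin from 0 to 21.

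Gmnn, at 0.0015 in knockdown without Activin, turned to -0.00019 by DESeq2, -0.00064 without a filter, -0.00067 in a fit of the compared groups, -0.00030 with RLE factors and -0.040 without the 3 libraries, and ran from -0.083 to 0.064 without 1 library, where Dtl ran from -0.0027 to 0.090. The summed level for Activin with Vprbp siRNA ran from -129.6 to 30.05 CPM without 1 library.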
